A study of Mus musculus with 12 samples.

Results

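The Paneth cell and antimicrobial lectin genes described here are Lyz1, Itln1, Mmp7, Ang4, Reg3b and Reg3g, measured in the ileum of POR-null and wild-type mice on a quercetin or a control diet. They were taken as every probe set annotated to exactly 1 of these 6 symbols. This gave 8 of the 22626 probe sets tested and 5 of 12393 genes with a probe set: 3 probe sets for Lyz1, 2 for Reg3b and 1 each for Itln1, Mmp7 and Reg3g. Ang4 had 0 such probe sets and is not analysed here. Where a gene had several probe sets, the one with the highest mean over the 12 arrays stands for it, and the others are given beside it. None of the 5 genes passed the test in any comparison, so the values below are levels and differences with their errors, and the spread among arrays takes up much of the account.

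There were 4 groups of 3 arrays. POR-null mice on quercetin received a soya-free powdered diet that held 6.2 g per kg of the flavonol quercetin (7 mg per mouse). POR-null mice on control received the powdered diet alone. Wild-type mice on quercetin and wild-type mice on control received the same diets. All animals were male C57BL/6 mice of 6 to 8 weeks, had 14 days to adapt to the powdered diet, and were killed 24 h after the test diet began. POR is cytochrome P450 reductase, which passes electrons to the microsomal P450 enzymes, and where it was deleted is not stated in the labels. Each array held RNA of the scraped epithelial layer of the last part of the small intestine, pooled from 3 mice, so animals within a pool were not seen separately and n = 3 counts pools. Values are log2 expression levels on Affymetrix 430A arrays.

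Paneth cells sit at the base of the small intestinal crypts and secrete granules filled with antimicrobial proteins. Lysozyme (Lyz1) cuts the bacterial cell wall. Matrilysin (Mmp7) is the protease that activates mouse alpha-defensin precursors, and intelectin 1 (Itln1) is a lectin that binds microbial sugars, made in Paneth and goblet cells. Reg3b and Reg3g are C-type lectins that act on bacterial surfaces. They are made by enterocytes as well as Paneth cells, and microbial signals, MyD88 and the cytokine IL-22 acting through STAT3 are known to induce them. In mucosal scrapings, fewer cells of a type and less RNA per cell cannot be told apart.

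The median level of an array was 5.91 to 5.96. Across probe sets, r for 2 arrays was 0.9917 to 0.9956 within a group and 0.9897 to 0.9954 between groups. The ileal genes Fabp6 (12.05 to 12.76) and Cubn (11.43 to 12.06) were bright on every array. So was the brush border gene Vil1 (12.11 to 12.32). The ileal genes Slc10a2 (5.22 to 7.52) and Fgf15 (5.31 to 8.88) were lower and varied more. The 10 measured pancreatic genes ran from Cela2a, at 4.06 to 4.37, to Prss2, at 7.03 to 7.36. The symbol Por was on 0 of the probe sets, and the genotype labels were therefore not checked against the deleted gene. Wild-type control replicate 2 stood apart. It lay at -25.57 on the first principal component, against -10.80 to 10.56 for the other 11 arrays, and had the highest mean centred log2 level (its score) of 10 measured genes that mark the proximal small intestine, 0.80, while the others were at -0.41 to 0.16. Its score of 9 measured ileal genes was the lowest, at -0.18, close to the next array at -0.16. Where a difference named below changed sign or moved by over 1.5 times without wild-type control replicate 2, the value without it is given.

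The upstream sequences of Reg3b and Reg3g are shown because Reg3g moved together over the arrays with the brighter of 2 Reg3b probe sets, though not with the other (r = 0.81 and 0.12). The 250 bases before each start site are from the RefSeq promoter table (build GRCm38.p6), written 5′ to 3′ on the gene's strand. Reg3b is at chr6:78370635-78370884 (+ strand) and Reg3g at chr6:78468875-78469124 (- strand). Capitals mark matches to any of 3 motifs searched on both strands. These were TATAAA, the TATA box, then TTCNNNGAA, the STAT-type motif, and then CTTTGAT, the TCF-type motif.
Reg3b: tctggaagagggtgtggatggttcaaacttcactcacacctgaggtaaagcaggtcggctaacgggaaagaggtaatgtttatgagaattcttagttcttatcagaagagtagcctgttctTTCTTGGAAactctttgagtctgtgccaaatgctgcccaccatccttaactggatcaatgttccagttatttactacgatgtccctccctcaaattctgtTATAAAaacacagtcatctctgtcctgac
Reg3g: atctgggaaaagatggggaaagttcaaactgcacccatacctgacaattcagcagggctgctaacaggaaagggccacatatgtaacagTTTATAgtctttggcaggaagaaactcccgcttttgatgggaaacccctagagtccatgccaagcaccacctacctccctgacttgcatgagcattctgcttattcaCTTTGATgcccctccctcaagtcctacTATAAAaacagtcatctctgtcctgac

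The Reg3b and Reg3g windows were identical in 173 of 253 aligned columns (68.4%), against 43.0% to 48.7% for the other 9 pairs among the 5 genes. Their longest shared run was the last 20 bases before the start, acagtcatctctgtcctgac. Both had a TATA box match close to the start, at 29 to 24 bases before it in Reg3b and 27 to 22 in Reg3g. Reg3b also had the STAT-type match, 129 to 121 bases before the start. Reg3g had none of that form here, but had a TCF-type match at 54 to 48 and the TATA box letters on the opposite strand at 161 to 156. The window of Mmp7, at chr9:7691840-7692089 (+ strand), held the TATA box letters at 123 to 118 and at 26 to 21. The windows of Itln1, at chr1:171535295-171535544 (- strand), and of Lyz1, at chr10:117292869-117293118 (- strand), had 0 matches. Of 32851 windows of the same length, 12.4% held the TATA box letters, 7.02% the STAT-type and 3.21% the TCF-type letters. A match is a run of letters and not a site shown to be bound. In the same gene table Reg3b, Reg3d, Reg3a, Reg2, Reg1 and Reg3g follow each other on chromosome 6 with no other protein-coding gene between them, and Lyz1 lies next to Lyz2 on chromosome 10.

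Of the granule genes, Lyz1 (probe set 1436996_x_at) was at 12.56, 12.40 and 13.02 in POR-null quercetin arrays and at 12.56, 12.41 and 12.29 in POR-null control arrays. In wild-type mice it was at 12.82, 12.36 and 12.23 on quercetin and at 12.68, 10.90 and 12.41 on control. Of the 12 arrays, 11 lay between 12.23 and 13.02, and wild-type control replicate 2 lay 1.33 below the lowest of them. The group means were 12.66 ± 0.32 in POR-null quercetin, 12.42 ± 0.14 in POR-null control, 12.47 ± 0.31 in wild-type quercetin and 11.997 ± 0.96 in wild-type control (log2 level, SD, n = 3). Each neighbouring pair in the order of the means differed by less than the larger SD of the pair, and the groups overlapped in every comparison.

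The drop of Lyz1 in wild-type control replicate 2 was among the deepest of any probe set on that array. The array held the lowest of the 12 values in 2683 of 22626 probe sets (11.9%), but lay over 1 log2 unit below all others in only 5. Lyz1 1436996_x_at was first among these and a second Lyz1 probe set, 1439426_x_at, followed with a gap of 1.20. The remaining 3 were an unnamed probe set (1450709_at, 1.16), Clca3b (1.04) and Atxn10 (1.02). Mmp7 ranked 12th, with a gap of 0.67. Itln1 (9.80) and Reg3g (12.58) were within the range of the other arrays on it, and Reg3b lay 0.01 below the rest. A probe set annotated to several alpha-defensin symbols (1450631_x_at) was also lowest there, at 10.71 against 11.17 to 11.89. The same array had the highest enterocyte score (0.47, against -0.33 to 0.25, 14 genes) and the lowest score of crypt stem cell and cycling genes (-0.43, against -0.11 to 0.15, 10 genes). The part of these gene groups in the low Lyz1 and Mmp7 values was not tested.

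The other Lyz1 probe sets gave a similar picture on the bright scale and a different one on the dim scale. Probe set 1439426_x_at was at 11.56, 11.70 and 12.38 in POR-null quercetin, 12.01, 11.58 and 11.95 in POR-null control, 11.92, 11.99 and 11.81 in wild-type quercetin, and 12.12, 10.36 and 11.62 in wild-type control. It correlated with 1436996_x_at over the 12 arrays with r = 0.91, and with r = 0.60 without wild-type control replicate 2. The suffix x_at marks probe sets with probes that can match other transcripts, and Lyz1 has a close paralog in Lyz2, so the share of each in these values is uncertain. Probe set 1450822_at lay far lower, between 6.07 and 6.71. It was at 6.42, 6.68 and 6.57 in wild-type quercetin and at 6.36, 6.17 and 6.07 in wild-type control, without overlap. The difference was 0.36 ± 0.12 (log2, SE; limma adjusted p = 0.308) and did not pass.

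Lyz2, the second mouse lysozyme gene and the one macrophages and neutrophils express, was at 9.46, 9.01 and 9.76 in POR-null quercetin and at 9.17, 8.40 and 9.09 in POR-null control. It was at 9.31, 8.53 and 9.41 in wild-type quercetin and at 8.72, 8.04 and 8.48 in wild-type control. Its quercetin difference was 0.52 ± 0.26 in POR-null (adjusted p = 0.759) and 0.67 ± 0.26 in wild type (limma adjusted p = 0.382), and the groups overlapped in both. The score of 19 of 20 listed macrophage and neutrophil genes, Lyz2 among them, lay between 0.021 and 0.112 in POR-null quercetin, between -0.069 and -0.0021 in POR-null control, between -0.066 and 0.035 in wild-type quercetin, and between -0.085 and 0.016 in wild-type control. Its part in the Lyz2 values was not tested.

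Itln1 was at 10.16, 9.82 and 10.68 in POR-null quercetin and at 10, 9.47 and 9.28 in POR-null control. In wild-type mice it was at 10.17, 9.43 and 9.47 on quercetin and at 10.09, 9.80 and 9.84 on control. POR-null quercetin replicate 3 was the highest and POR-null control replicate 3 the lowest of all 12 arrays, and the groups overlapped in every comparison. The means were 10.22 ± 0.43 in POR-null quercetin, 9.58 ± 0.37 in POR-null control, 9.69 ± 0.42 in wild-type quercetin and 9.91 ± 0.16 in wild-type control (log2 level, SD, n = 3), and neighbours in the order of the means differed by less than the larger SD of the pair.

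Mmp7 was at 9.08, 9.53 and 9.50 in POR-null quercetin and at 9.04, 9.10 and 8.58 in POR-null control. In wild-type mice it was at 9.04, 8.56 and 8.74 on quercetin and at 8.94, 7.89 and 8.94 on control. The POR-null quercetin arrays were all above the wild-type quercetin arrays, and they overlapped the POR-null control arrays by a narrow margin. Its means were 9.37 ± 0.25 in POR-null quercetin, 8.91 ± 0.28 in POR-null control, 8.78 ± 0.24 in wild-type quercetin and 8.59 ± 0.61 in wild-type control (log2 level, SD, n = 3). Only the step between the POR-null groups, 0.46, exceeded the larger SD of its pair.

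The lectins Reg3b and Reg3g varied less among arrays than the granule genes, by a margin that for Lyz1 and Mmp7 rested largely on wild-type control replicate 2. Reg3b (1416297_s_at) was at 13.24, 13.45 and 13.33 in POR-null quercetin and at 13.43, 13.48 and 13.37 in POR-null control. It was at 13.30, 13.25 and 13.50 in wild-type quercetin and at 13.27, 13.23 and 13.32 in wild-type control. The POR-null control arrays were all above the wild-type control arrays. The residual SD of Reg3b in the fit was 0.09, against 0.53 for Lyz1, 0.36 for Itln1, 0.38 for Mmp7 and 0.18 for Reg3g. Without wild-type control replicate 2 it was 0.10 for Reg3b, against 0.26 for Lyz1, 0.38 for Itln1, 0.24 for Mmp7 and 0.19 for Reg3g. Reg3b lay near the top of the levels on these arrays, and whether its range was compressed at the top of the scale was not tested. Means were 13.34 ± 0.11 in POR-null quercetin, 13.43 ± 0.06 in POR-null control, 13.35 ± 0.13 in wild-type quercetin and 13.27 ± 0.05 in wild-type control (log2 level, SD, n = 3). The second Reg3b probe set, 1448290_at, ranged from 11.58 to 12.06, had overlapping groups in every comparison, and correlated with the first with r = 0.24 only. It differed by at most 0.07 in size in any comparison (adjusted p of 0.886 or more).

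Reg3g was at 12.54, 12.87 and 12.45 in POR-null quercetin and at 12.77, 12.97 and 12.64 in POR-null control. In wild-type mice it was at 12.39, 12.55 and 12.81 on quercetin and at 12.55, 12.58 and 12.45 on control. Like Reg3b, it was higher in all 3 POR-null control arrays than in all 3 wild-type control arrays. The means were 12.62 ± 0.22 in POR-null quercetin, 12.79 ± 0.17 in POR-null control, 12.58 ± 0.21 in wild-type quercetin and 12.53 ± 0.07 in wild-type control (log2 level, SD, n = 3). For Reg3b and Reg3g, too, neighbours in the order of the means differed by less than the larger SD of the pair.

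**Figure D1:**
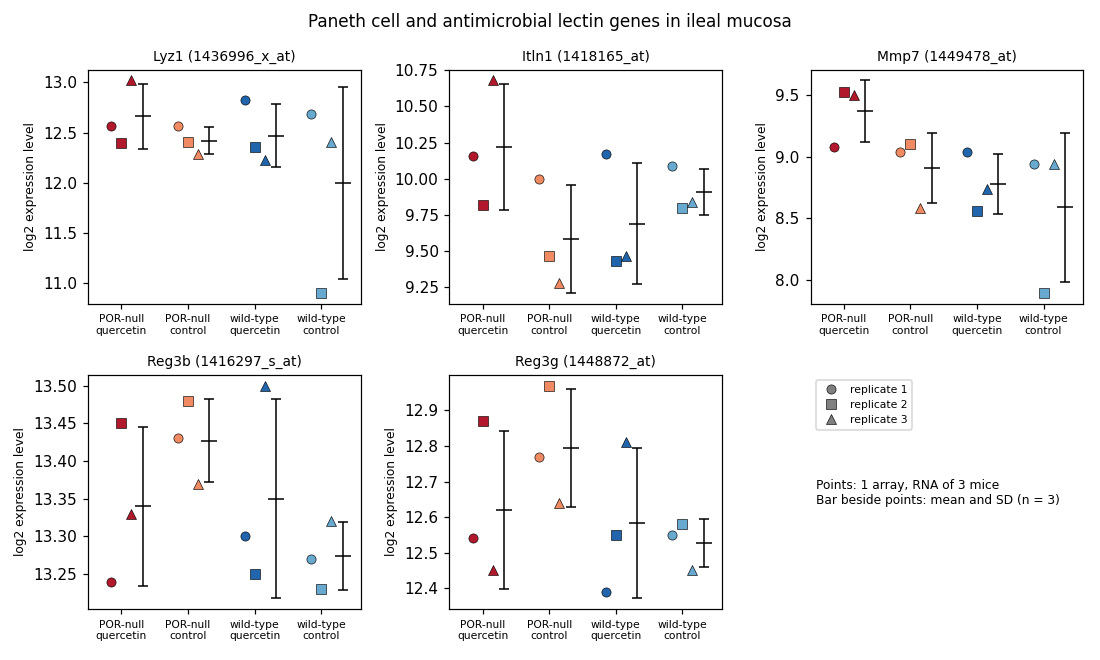
Log2 expression level of Lyz1, Itln1, Mmp7, Reg3b and Reg3g on each of the 12 arrays, by group (colour) and replicate (symbol), with the mean and SD of each group (n = 3) beside its points. Wild-type control replicate 2 lies at 10.90 for Lyz1 and 7.89 for Mmp7, below all other arrays, and the axes of Reg3b and Reg3g span a much narrower range.

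In POR-null mice the quercetin diet was set against the control diet. Itln1 was 0.64 ± 0.23 higher on quercetin (log2, SE; 1.55-fold, 95% interval 0.13 to 1.14), Mmp7 0.46 ± 0.24 and Lyz1 0.24 ± 0.34, while Reg3b differed by -0.09 ± 0.08 and Reg3g by -0.17 ± 0.13. The limma p adjusted over all probe sets was 0.697 for Itln1, 0.772 for Mmp7, 0.927 for Lyz1, 0.874 for Reg3b and 0.84 for Reg3g. Thus 0 of 5 genes passed, against 0.0% of all probe sets. At an unadjusted p under 0.05 it was 1 of 5, against 6.65% of all. None of the 5 had groups that did not overlap, which 12.6% of probe sets had. The quercetin difference of Itln1 ranged from 0.41 to 0.85 when any of the 12 arrays was left out, with the lowest without POR-null quercetin replicate 3. Without that array Lyz1 differed by 0.06 and Reg3g by -0.09. Mmp7 was at 0.30 without POR-null control replicate 3, and Reg3b at -0.04 without POR-null quercetin replicate 1.

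The same diet in wild-type mice gave the other sign for Itln1, Reg3b and Reg3g. Itln1 differed by -0.22 ± 0.23 (log2, SE, limma adjusted p = 0.758), Lyz1 by 0.47 ± 0.34 (0.634) and Mmp7 by 0.19 ± 0.24 (0.806). Reg3b differed by 0.08 ± 0.08 (limma adjusted p = 0.755) and Reg3g by 0.06 ± 0.13 (0.899). The differences of Lyz1 and Mmp7 turned on 1 array. Without wild-type control replicate 2 they were -0.08 and -0.16. Reg3g was at -0.06 and Reg3b at 0.00167 without wild-type quercetin replicate 3. Itln1 ranged from -0.46 to -0.09 over the arrays left out in turn. None of the 5 genes passed, against 0.00442% of probe sets (a single one, of Gas5), and 0 of 5 had an unadjusted p under 0.05, against 10.9% of all. Their groups all overlapped at the brightest probe set, while 13.4% of probe sets had groups that did not. The dim Lyz1 probe set 1450822_at, described above, was without overlap here.

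The genotype comparison on the quercetin diet set POR-null against wild-type mice. Mmp7 was 0.59 ± 0.24 higher in POR-null (log2, SE; 95% interval 0.07 to 1.11, limma adjusted p = 0.671) with no overlap between the groups. Itln1 differed by 0.53 ± 0.23 (limma adjusted p = 0.692), Lyz1 by 0.19 ± 0.34 (adjusted p = 0.938), Reg3b by -0.01 ± 0.08 (0.99) and Reg3g by 0.04 ± 0.13 (0.971). Without POR-null quercetin replicate 3, Itln1 differed by 0.30 and Lyz1 by 0.01, while the lowest value of Mmp7 with any array left out was 0.48. Again 0 of 5 genes passed, against 0.0% of probe sets. Mmp7 and Itln1 had an unadjusted p under 0.05, which 7.01% of probe sets had, and Mmp7 was the single gene of the 5 whose groups did not overlap, as in 12.3% of probe sets.

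On the control diet the genotype difference was largest, relative to its error, for Reg3g and the brighter Reg3b probe set. Reg3g was 0.27 ± 0.13 higher in POR-null (log2, SE; 95% interval -0.00164 to 0.535, limma adjusted p = 0.493) and Reg3b 0.15 ± 0.08 (limma adjusted p = 0.529). Lyz1 differed by 0.42 ± 0.34 (adjusted p = 0.688), Mmp7 by 0.32 ± 0.24 (0.676) and Itln1 by -0.33 ± 0.23 (0.652). Without wild-type control replicate 2, Lyz1 differed by -0.13 and Mmp7 by -0.03, while Reg3g differed by 0.29 and Reg3b by 0.13. Itln1 was at -0.175 without POR-null control replicate 3 and Reg3g at 0.178 without POR-null control replicate 2. No gene passed, against 0.0% of probe sets, and 0 of 5 had an unadjusted p under 0.05, against 10.1%. Reg3b and Reg3g, 2 of the 5 genes, had groups without overlap, against 13.9% of probe sets. The second Reg3b probe set differed by -0.05 ± 0.11.

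The interaction, the POR-null response to quercetin minus the wild-type response, was 0.86 ± 0.33 for Itln1 (log2, SE; 95% interval 0.15 to 1.57, limma adjusted p = 0.438). It was 0.27 ± 0.34 for Mmp7 (adjusted p = 0.792), -0.23 ± 0.48 for Lyz1 (0.878), -0.16 ± 0.11 for Reg3b (0.612) and -0.23 ± 0.18 for Reg3g (0.645). The second Reg3b probe set had the other sign, 0.07 ± 0.16 (adjusted p = 0.894), and the mean of both was at -0.05. Without wild-type control replicate 2 the Lyz1 value was 0.32 and the Mmp7 value 0.62, and over all arrays left out in turn Mmp7 ranged from 0.0983 to 0.623 and Itln1 from 0.627 to 1.1. Here 0 of 5 genes passed, against 0.0% of probe sets, and 1 of 5 had an unadjusted p under 0.05, against 10.3%. The control arrays enter the response of each genotype, so these comparisons share arrays and are not independent of each other.

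**Figure D2:**
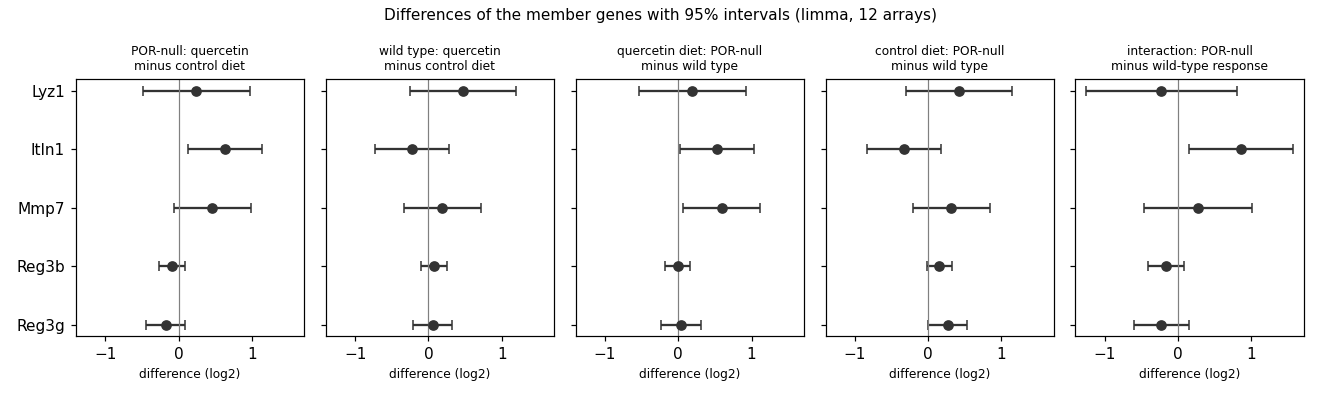
Differences of the 5 genes (log2, points) with 95% intervals from the limma fit of 12 arrays, 1 panel for each of the 4 comparisons and the interaction. The intervals of Itln1 exclude 0 in POR-null quercetin against control, in POR-null against wild type on quercetin and in the interaction, and that of Mmp7 in POR-null against wild type on quercetin, before adjustment over all probe sets.

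All 10 pairs of the 5 genes, each at its brightest probe set, were correlated over the 12 arrays. The brighter Reg3b probe set, 1416297_s_at, moved together with Reg3g, with Pearson's r = 0.81 (permutation p = 0.00226, Benjamini-Hochberg adjusted over the 10 pairs 0.0161) and Spearman's rho = 0.64 (p = 0.0294, adjusted 0.078). Without the 2 arrays farthest from the Reg3b median, wild-type quercetin replicate 3 and POR-null control replicate 2, r was 0.69. After the group means were taken out it was 0.74. The second Reg3b probe set, 1448290_at, did not follow Reg3g in this way (r = 0.12, rho = 0.09), so the relation rests on 1 of 2 Reg3b probe sets. All were two-sided tests with 100000 permutations. The arrays shared their groups, and 3 pools per group are few. Whether the probes of 1416297_s_at also match Reg3g was not looked up. Signal shared by these related genes therefore cannot be told apart from levels that move together.

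Lyz1 and Itln1 had Spearman's rho = 0.86 (permutation p = 0.00061, adjusted 0.0061) but Pearson's r = 0.44 (p = 0.149, adjusted 0.298). Wild-type control replicate 2 was low for Lyz1 and mid-range for Itln1, and without it r was 0.92. Without the 2 arrays farthest from the Lyz1 median r was 0.86. Lyz1 and Mmp7 had r = 0.83 (permutation p = 0.00321, adjusted 0.0161) and rho = 0.63 (p = 0.0312, adjusted 0.078), and that r rested on the far arrays. It was 0.34 without the 2 farthest, and 0.57 without wild-type control replicate 2 alone. Itln1 and Mmp7 had r = 0.50 (permutation p = 0.0954, adjusted 0.238). Between these granule genes and Reg3b or Reg3g, r ran from -0.53 (Itln1 and Reg3g; permutation p = 0.0786, adjusted 0.238) to 0.39 (Mmp7 and Reg3b; p = 0.217, adjusted 0.362). Spearman's rho ran from -0.63 (permutation p = 0.0301, adjusted 0.078) to 0.40 (p = 0.197, adjusted 0.281) for the same 2 pairs. Lyz1 and Reg3g had r = -0.17 but rho = -0.55 (permutation p = 0.065, adjusted 0.108). Without wild-type control replicate 2 their r was -0.57.

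**Figure D3:**
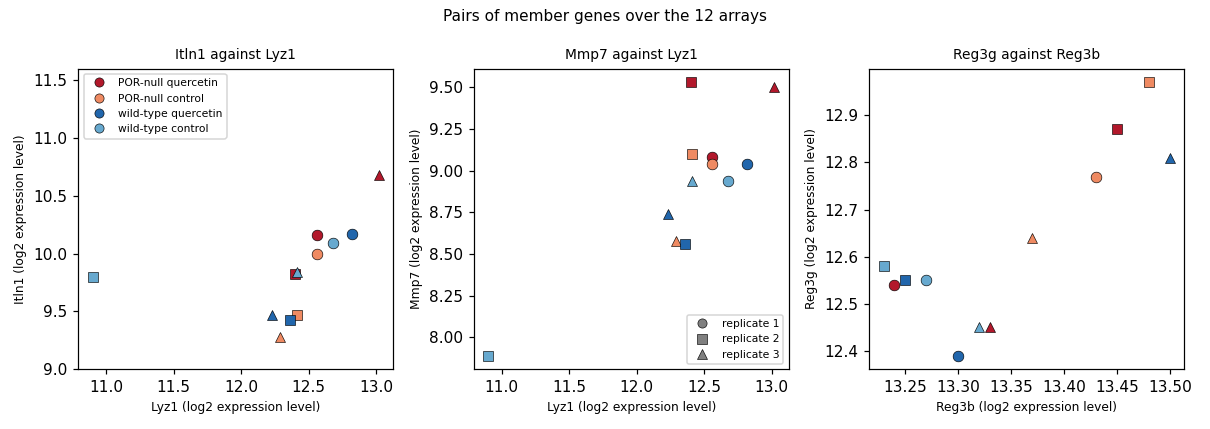
Log2 expression levels of Itln1 and of Mmp7 against Lyz1, and of Reg3g against Reg3b, 1 point per array, with colour for group and symbol for replicate. Wild-type control replicate 2, at 10.90 for Lyz1, lies apart in the first 2 panels, while Reg3g and the brighter Reg3b probe set run together over all 12 arrays (r = 0.81). The second Reg3b probe set (r = 0.12 with Reg3g) is not drawn.

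The genes whose levels were most like each profile over the 12 arrays were found by Pearson's r, as a description. The mean centred level of Lyz1, Itln1 and Mmp7 was set against the 12388 other genes. The closest were Sp110 (r = 0.92), Madd (0.90), Aimp2 (0.89), Suz12 (0.89), Rcc2 (0.89) and Asns (0.88). Their ranges were narrow: Sp110, the closest, lay between 6.64 and 6.90 on all arrays. Without wild-type control replicate 2 the 6 values were between 0.77 and 0.86. Of the further Paneth cell genes listed below, ranks are given only for the phospholipase gene Pla2g2a and for Lyz2. Pla2g2a ranked 9th (r = 0.88, or 0.77 without wild-type control replicate 2), with levels between 5.78 and 6.80. Lyz2 ranked 281st (0.69, or 0.52 without that array). The profile of Reg3g and the brighter Reg3b probe set was closest to Itpr2 (0.86), Fgg (0.86), Wipf1 (0.85), Saa1 (0.85), Cdc6 (0.82) and Ms4a8a (0.82). Fgg (4.58 to 4.90) and Cdc6 (3.57 to 3.89) were dim and spanned narrow ranges, beside a lower quartile of mean levels of 4.736. Saa1 encodes serum amyloid A1, an acute-phase protein that IL-22 also induces in gut epithelium. Its probe set of highest likeness ranged from 7.62 to 10.23, and Saa2 ranked 19th (0.76). The neighbouring gene Reg3a ranked 197th (0.61).

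Of the 5 other Reg family genes, which encode secreted proteins of the same C-type lectin fold, 0 passed in any comparison. Reg3a was at 8.68, 8.74 and 8.58 in POR-null quercetin, 8.41, 9.13 and 9.03 in POR-null control, 8.68, 8.54 and 9.03 in wild-type quercetin, and 8.53, 8.15 and 8.31 in wild-type control. Wild-type control had the lowest group mean for Reg3a, as it had for Reg3g and the brighter Reg3b probe set, while for the second Reg3b probe set it had the highest. On the control diet Reg3a differed by 0.53 ± 0.17 between POR-null and wild type (log2, SE; limma adjusted p = 0.366), and by 0.44 without wild-type control replicate 2. The groups overlapped there. With quercetin Reg3a was 0.42 ± 0.17 higher in wild type (limma adjusted p = 0.392). The groups were only just without overlap, as the lowest quercetin array was at 8.54 and the highest control array at 8.53. In POR-null Reg3a differed by -0.19 ± 0.17, with an interaction of -0.61 ± 0.24 (limma adjusted p = 0.442).

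Reg1 was at 5.49, 5.85 and 5.77 in POR-null quercetin and at 5.12, 4.91 and 4.90 in POR-null control, without overlap (0.73 ± 0.31, log2, SE; limma adjusted p = 0.726). In wild-type mice it was at 6.01, 4.76 and 4.52 on quercetin and at 5.73, 4.93 and 4.82 on control, where replicate 1 of each group was high. Reg3d had an interaction of 0.35 ± 0.13 (limma adjusted p = 0.434), over levels of 5.52 to 5.97, and was lower on quercetin in wild type without overlap (-0.24 ± 0.09, adjusted p = 0.377). Of the 5 other Reg family genes, groups did not overlap in 1 with quercetin in POR-null, against 12.6% of probe sets. The count was 2 of 5 in wild type, against 13.4%. Between genotypes it was 1 of 5 on quercetin, against 12.3%, and 0 of 5 on control, against 13.9%. Reg2 ranged from 6.19 to 6.59 and Reg4 from 6.27 to 7.74, and neither had an unadjusted p under 0.05 in any comparison.

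**Figure D4:**
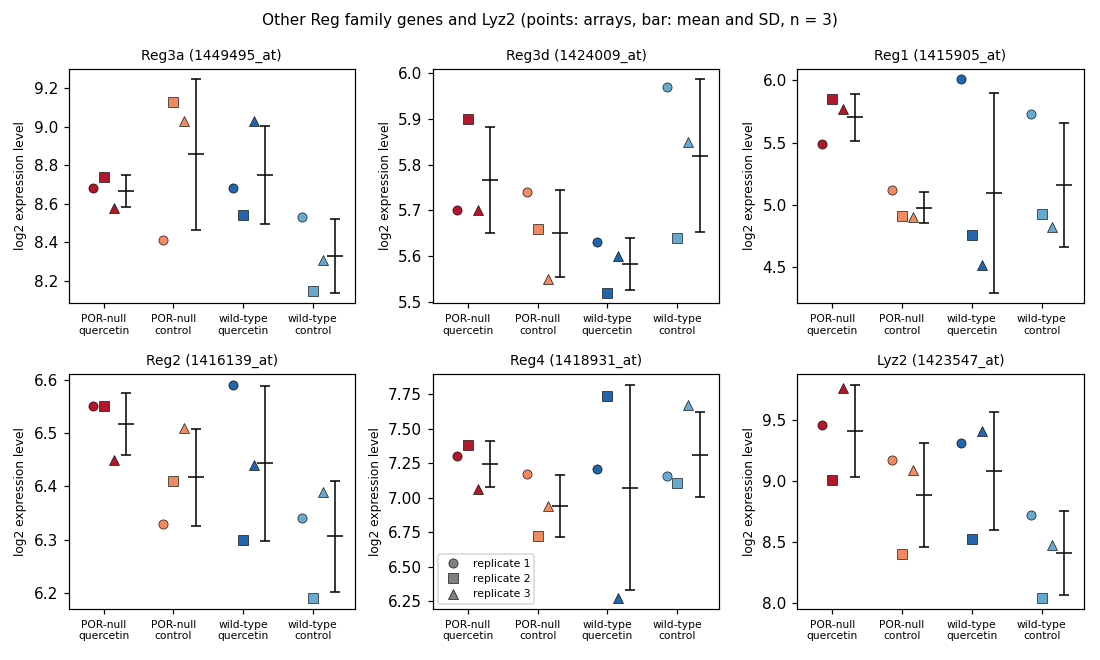
Log2 expression level of Reg3a, Reg3d, Reg1, Reg2, Reg4 and Lyz2 on each array by group, with the mean and SD of each group (n = 3). The group mean of Reg3a is lowest in wild-type control, whose arrays (8.15 to 8.53) overlap those of POR-null control (8.41 to 9.13). The Reg1 arrays of POR-null quercetin (5.49 to 5.85) lie above those of POR-null control (4.90 to 5.12).

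Of 28 further Paneth cell genes, 22 were measured and 0 passed in any comparison. Lyz2 was among the 22, and is also in the macrophage and neutrophil list. With quercetin in POR-null mice 13 were above 0 and 9 below, with a median difference of 0.02 (log2; all probe sets 0.01, of which 54.8% were above 0), beside 0.64 for Itln1 and 0.46 for Mmp7. Pnliprp2, a lipase of the pancreatic lipase family, differed by 0.70 ± 0.30 (limma adjusted p = 0.726) and Nupr1, a stress-response gene, by 0.24 ± 0.11 (limma adjusted p = 0.726). Both were among 3 of 22 whose groups did not overlap, against 12.6% of probe sets. In wild-type mice 12 were above 0 and 10 below (median 0.00, all probe sets -0.02, of which 42.3% were above 0), or 8 above and 14 below without wild-type control replicate 2. For genotype, 12 of 22 were above 0 on quercetin, against 55.2% of probe sets, and 10 of 22 on control, against 44.0%, with medians of 0.02 and -0.03. Nupr1 was 0.33 ± 0.11 higher in POR-null on quercetin (limma adjusted p = 0.57). Pnliprp2 had the smallest p of the list in the interaction, 1.21 ± 0.43 (limma adjusted p = 0.426), and wild-type control replicate 2 was its highest array (7.51). The score of the 22 genes lay between -0.065 and 0.106 in POR-null quercetin and between -0.055 and -0.035 in POR-null control. It lay between -0.058 and 0.118 in wild-type quercetin and between -0.006 and 0.009 in wild-type control. On wild-type control replicate 2, the lowest array for Lyz1 and Mmp7, it was 0.007.

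Alpha-defensins, the main peptides of mouse Paneth granules, had 2 measured genes of 34 listed. Defa3 lay between 3.63 and 3.87 on all arrays. Defa31 (1422934_x_at) was at 5.95, 12.30 and 5.90 in POR-null quercetin, 5.86, 5.58 and 5.46 in POR-null control, 5.74, 5.69 and 10.22 in wild-type quercetin, and 5.69, 5.55 and 5.63 in wild-type control. Thus 1 array of each quercetin group was far above the rest: POR-null quercetin replicate 2 lay 6.35 and wild-type quercetin replicate 3 lay 4.27 log2 units above the highest of the other 10. Whether those 10 were above background is not given in the sources used here. The same 2 arrays were high in 2 probe sets without a symbol, 1420598_x_at (13.37 and 11.55, against 8.66 to 9.16) and 1422422_at (7.51 and 7.49, against 4.48 to 5.13). No other of the 22626 probe sets had both arrays over 0.5 log2 units above the other 10. Defa31 and these probe sets were singled out after their values were seen. It was not tested whether they stand for 1 transcript, and none passed the test in any comparison.

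The 2 arrays lay within or close to the range of the others in the 5 genes. For Reg3g and the brighter Reg3b probe set each was the highest of its own group. Reg3g was at 12.87 on POR-null quercetin replicate 2 and 12.81 on wild-type quercetin replicate 3, against 12.39 to 12.55 on the other quercetin arrays. POR-null quercetin replicate 2 was the highest array for Mmp7 (9.53) and wild-type quercetin replicate 3 the highest for Reg3b (13.50), but for Lyz1 they were at 12.40 and 12.23 and for Itln1 at 9.82 and 9.47. The probe set annotated to several alpha-defensin symbols was at 11.33 on both, within the range of the others. With these 2 arrays left out, Itln1 differed by 0.84 ± 0.24 with quercetin in POR-null (log2, SE; limma adjusted p = 0.97), Reg3g by -0.30 ± 0.10 (limma adjusted p = 0.97) and Mmp7 by 0.38 ± 0.29. On the control diet Reg3g differed by 0.27 ± 0.09 between the genotypes (limma adjusted p = 0.457). None of the 5 genes passed.

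**Figure D5:**
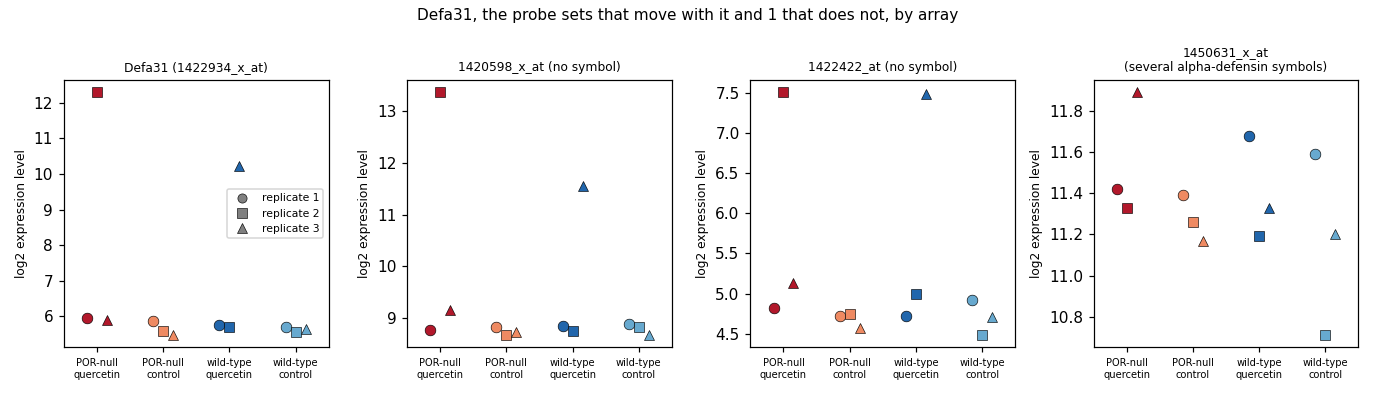
Log2 expression level on each array, by group, of Defa31, of 2 probe sets without a symbol that move with it, and of a probe set annotated to several alpha-defensin symbols. POR-null quercetin replicate 2 and wild-type quercetin replicate 3 lie far above the other 10 arrays in the first 3 panels and within their range in the last.

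Genes of the IL-22 response and epithelial defence, the setting in which Reg3b and Reg3g are best known, had 29 measured of 34 listed, and 0 passed. With quercetin in wild type 26 of 29 were below 0, with a median of -0.12 (log2; all probe sets -0.02, of which 42.3% were above 0), and 24 of 29 without wild-type control replicate 2. The brighter Reg3b probe set and Reg3g were at 0.08 and 0.06, and the second Reg3b probe set was at -0.06. Socs3, the feedback inhibitor of STAT3 signalling, was at 7.35, 7.04 and 7.10 on quercetin and 7.65, 7.71 and 7.63 on control in wild type. It differed by -0.50 ± 0.11 (limma adjusted p = 0.231). Duoxa2, a maturation factor of the epithelial oxidase Duox2, differed by -0.76 ± 0.18 (limma adjusted p = 0.237), the squamous-type gene Sprr1a by -0.32 ± 0.10 and the fucosyltransferase gene Fut2 by -0.23 ± 0.09. In all 4 the groups did not overlap, as in 7 of the 29 genes and 13.4% of all probe sets. At an unadjusted p under 0.05, 2 of 29 were higher and 7 lower, together 9 of 29, against 10.9% of all probe sets.

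In POR-null mice the same list was split 14 above and 15 below 0 with quercetin (median -0.01, all probe sets 0.01, of which 54.8% were above 0). The calprotectin subunit gene S100a9, dim on all arrays (4.43 to 4.84), had the smallest p (0.23 ± 0.08, log2, SE, limma adjusted p = 0.697). Saa1 differed by -0.85 ± 0.47 (limma adjusted p = 0.78). On the quercetin diet 18 of 29 were above 0 between the genotypes, against 55.2% of probe sets, and groups did not overlap in 4 of 29, against 12.3%. S100a9 was at 0.29 ± 0.08 and Socs3 at 0.35 ± 0.11 (limma adjusted p = 0.484 and 0.57). On the control diet 10 of 29 were above 0 and 19 below, against 44.0% of probe sets above 0. Groups did not overlap in 10 of 29, with 4 higher and 6 lower, against 13.9% of probe sets. At an unadjusted p under 0.05, 1 was higher and 5 lower, together 20.7% of the list, against 10.1% of all probe sets. There Sprr1a differed by -0.43 ± 0.10 (limma adjusted p = 0.283), Duoxa2 by -0.65 ± 0.18 (-0.43 without wild-type control replicate 2) and the cytokine gene Il18 by -0.70 ± 0.20, while Pglyrp1, a peptidoglycan-binding protein gene, differed by 0.43 ± 0.13. Reg3g and the brighter Reg3b probe set were above 0 there, and the second Reg3b probe set was below 0 (-0.05). In the interaction 21 of 29 were above 0 (median 0.15, all probe sets 0.03, of which 57.2% were above 0), with Socs3 at 0.56 ± 0.16 (limma adjusted p = 0.351). Reg3g and the brighter Reg3b probe set were below 0 there and the second Reg3b probe set above it (0.07).

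Of 31 inducing cytokines and innate receptors, 23 were measured and 0 passed. With quercetin 13 of 23 were above 0 in POR-null, against 54.8% of probe sets, and 9 of 23 in wild type, against 42.3%. The medians were 0.02 and -0.04. Cd14, the lipopolysaccharide co-receptor, had the smallest p in wild type (-0.26 ± 0.09, log2, SE; limma adjusted p = 0.341) and in the interaction (0.42 ± 0.13, limma adjusted p = 0.381). Il4 had the smallest p in POR-null with quercetin (0.25 ± 0.08, adjusted p = 0.668) and between the genotypes on quercetin (0.27 ± 0.08, adjusted p = 0.5). On the control diet 10 of 23 were above 0 and 13 below, against 44.0% of probe sets above 0. The alarmin gene Il33 was at -0.28 ± 0.10 there (limma adjusted p = 0.391). Il4 (4.51 to 4.94) and Il33 (4.05 to 4.56) were dim on all arrays. The lower quartile of mean levels over all probe sets was 4.736.

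Of 19 regulators of the secretory lineage, 18 were measured and 0 passed, with medians between -0.04 and 0.03 in the 4 comparisons between groups. With quercetin in POR-null, Gfi1, a transcription factor of the secretory lineage, differed by 0.24 ± 0.10 (limma adjusted p = 0.726) and Foxa1 by -0.24 ± 0.09 (limma adjusted p = 0.697). Xbp1, which the secretory cells need for their endoplasmic reticulum, differed by 0.10 ± 0.08 there. In wild type the Wnt effector gene Tcf7l2 differed by -0.24 ± 0.09 (limma adjusted p = 0.349). Atoh1 and Sox9, factors of the secretory and Paneth cell fates, lay between 7.65 and 8.14 and between 4.97 and 5.29 on all arrays. Gfi1 was dim, between 3.39 and 4.0 on all arrays.

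Goblet cell genes, as markers of the other secretory cells that make Itln1, had 15 measured of 18, and 0 passed. With quercetin 10 of 15 were above 0 in POR-null (median 0.08), against 54.8% of probe sets, and 4 of 15 in wild type (median -0.12), against 42.3%. The interaction was above 0 for 14 of 15 (median 0.18, all probe sets 0.03, of which 57.2% were above 0). Itln1 was at 0.64, -0.22 and 0.86 in the same 3. Spink4 had an interaction of 0.57 ± 0.22 (log2, SE; limma adjusted p = 0.445) and Sytl2 of 0.29 ± 0.11 (limma adjusted p = 0.432). On the control diet 2 of 15 were above 0 and 13 below in POR-null against wild type (median -0.10), where 44.0% of all probe sets were above 0. Klk1 was at -0.47 ± 0.14 (limma adjusted p = 0.338), Spink4 at -0.52 ± 0.16 and Retnlb at -1.12 ± 0.50. These 3 were among 5 of 15 whose groups did not overlap, against 13.9% of probe sets. Retnlb was highest on wild-type control replicate 2 (7.55), and without that array its difference was -0.38. The score of the 15 genes lay between -0.06 and 0.09 in POR-null quercetin, -0.12 and -0.05 in POR-null control, -0.15 and 0.08 in wild-type quercetin, and 0.03 and 0.17 in wild-type control. Its part in the Itln1 values was not tested. The score of 10 of 16 listed pancreatic genes stayed between -0.11 and 0.10 on all arrays.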

How the data were processed

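The values deposited by the authors for 12 arrays of ileal mucosa are log2 expression levels of probe sets. MAS5 and RMA are named in the submitters' processing notes, without roles or versions, and the background correction behind the values is not given in the sources used here. The values were used as deposited. The number of arrays, 3 pools of 3 mice per group, limits the precision. The limma p-values weigh group differences against the spread between pools, with the variance moderated over all probe sets.

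Tests covered 22626 of 22690 probe sets, the other 64 being array controls. In the platform annotation 20380 had 1 symbol, 691 several and 1555 none. Of the first, 20351 matched RefSeq gene IDs. Group means were estimated in 1 limma fit over the 12 arrays (limma 3.58.1, R 4.3.3, lmFit and eBayes), with 8 degrees of freedom from the residuals and 5.59 from the prior. Benjamini-Hochberg adjustment of the p-values ran over every probe set tested, and the threshold was 0.05. The fit was tested on simulated data. Members and the 15 gene lists (286 names) were chosen with earlier results of these data known. Each list is described by its counts and median, with up to 4 genes of smallest p per comparison named. Likeness was Pearson's r over 12 arrays, 6 genes named per profile. List scores are means of centred log2 values. Correlations were tested in Python 3.11.15 with scipy 1.17.1, and promoter windows were aligned with Biopython 1.88.

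Alternatives were leaving out each array, fitting only the arrays of a comparison, a replicate block, averaging a gene's probe sets, array weights, trend and robust options of eBayes, dropping the dimmest probe sets (mean level under the lower quartile), median centring and quantile normalization. Leaving out the 2 arrays with high Defa31, and the list counts, differences of named list genes and residual SDs without wild-type control replicate 2, were added after seeing the data.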

Additional observations from a re-analysis of the deposited data

How the results depend on the processing

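The 5 genes did not pass in any of 520 combinations of result and alternative (25 results), with a lowest limma adjusted p of 0.269, and 507 kept their sign. The 13 that did not fall on 8 results. Without wild-type control replicate 2, Lyz1 was at -0.075 and Mmp7 at -0.16 with quercetin in wild type, at -0.125 and -0.0333 between genotypes on control, and the Lyz1 interaction was 0.315. Over the 12 arrays left out in turn, Lyz1 ranged from -0.075 to 0.815 and Mmp7 from -0.16 to 0.365 with quercetin in wild type, and from -0.125 to 0.765 and -0.0333 to 0.492 between genotypes on control; the Lyz1 interaction ranged from -0.575 to 0.315. Reg3g with quercetin in wild type was -0.0567 without wild-type quercetin replicate 3, alone or with POR-null quercetin replicate 2, and ranged up to 0.153. Between genotypes on quercetin, differences near 0 changed sign. Reg3b was 0.005 as the mean of its probe sets, 0.01 without the 2 arrays with high Defa31, and from -0.065 to 0.065 with arrays left out in turn, with 0.065 without wild-type quercetin replicate 3 and 0.04 without POR-null quercetin replicate 1. Reg3g was from -0.0883 (without POR-null quercetin replicate 2) to 0.15, with -0.06 without wild-type quercetin replicate 1. Except for the arrays left out, the cause was not tested.

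Counts over all probe sets with quercetin in wild type (1 in the fit as reported) were 7 without the dimmest probe sets, 7 with trend and robust, 2 with only the arrays compared and 1 to 59 with an array left out, the 59 without wild-type control replicate 1. Between genotypes on control (0), they were 1 with trend and robust and 0 to 15 with an array left out, the 15 without the same array. Between genotypes on quercetin (0), they were 5 with trend and robust, 2 with only the arrays compared and 0 to 1 with an array left out. For the interaction (0), they were 2 with trend and robust and 0 to 9 with an array left out. No member gene was among the calls.

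The labels do not say whether a replicate number marks pools that were handled together. Of 18 same-numbered pairs of arrays, deviations from group means correlated above 0.1 in 3 (r from -0.179 to 0.162). Such correlations cannot show whether the pools shared a batch. With the replicate number as a block, 5 probe sets passed with quercetin in wild type, 2 between genotypes on quercetin and 3 in the interaction. The block kept the signs of all 25 member results and made no call among them, with Itln1 at 0.637 with quercetin in POR-null (adjusted p = 0.619).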
